A study of Homo sapiens with 6 samples.

Results

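Mitochondrial ribosomal protein genes were taken as the protein-coding rows of the RNA-seq table whose symbol begins with MRPL or MRPS followed by a number. The rule found 78 genes among 21301 rows, of which 49 were MRPL genes, named for the large subunit, and 29 were MRPS genes, named for the small subunit. All 78 were abundant enough to be tested, and no member was left out.

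The libraries came from SH-SY5Y, a human neuroblastoma cell line used as a model of neuronal cells. One group received a control siRNA (siControl) and the other an siRNA against PSF (siPSF), both at 10 nM for 72 h, and each group was sequenced as 3 biological replicates. PSF, encoded by SFPQ, is a nuclear RNA-binding protein, so the comparison asks which transcripts differ in level when PSF is reduced. A single siRNA sequence and a single line were used in these libraries, with no vehicle or untransfected group. In bulk RNA, fewer cells of a type and less RNA per cell cannot be told apart.

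Mitochondrial ribosomes translate the few proteins encoded by mitochondrial DNA, all of them subunits of the respiratory chain and ATP synthase. Their rRNAs come from mitochondrial DNA, whereas every one of their proteins is encoded in the nucleus, made in the cytosol and imported. Many of these proteins have a bacterial homologue, and the others were gained in the mitochondrial lineage. The small subunit decodes the mRNA, and the large subunit joins the amino acids and releases the chain next to the inner membrane.

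The 6 libraries held between 101540520 and 132420931 counts. Members took between 0.464% and 0.492% of the counts in siControl and between 0.476% and 0.487% in siPSF, so the ranges of the groups overlapped. The target was checked first. SFPQ stood at 372, 356 and 401 CPM (counts scaled to library size, here and below with TMM factors) in the siControl libraries and at 209, 193 and 165 CPM in the siPSF libraries. It fell by 0.99 on the log2 scale (SE 0.10, adjusted p = 9.5e-05), and 50.2% of its level was left. Of 12 noradrenergic neuroblastoma markers, 11 reached a mean of 1 CPM, and their summed level ranged from 6338 to 7065 CPM in siControl and from 5762 to 6959 CPM in siPSF. Of the 12, GATA3 was called higher, and DBH, ELAVL4 and TH lower, with TH under 1 CPM in every library. Of 8 mesenchymal and fibroblast markers, 6 were in the table, with sums of 47.1 to 67.6 CPM in siControl and 44.1 to 50.8 CPM in siPSF, and COL3A1 was called lower. Of 7 astrocyte and microglia markers, 2 were in the table, with sums of 3.03 to 4.35 CPM and 2.44 to 2.65 CPM, and SLC1A2 was called lower. The part of these marker changes in the results for the mitochondrial ribosome was not tested.

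Levels of the members were first compared within siControl, per length, as FPKM. The highest mean FPKM was 99.0 times the lowest. Among large subunit genes, MRPL12, whose protein forms the flexible stalk that contacts translation factors, was highest at 203 ± 19.9 FPKM (SD, n = 3). MRPL24 followed at 147 ± 10.1 FPKM and MRPL33 at 130 ± 4.82 FPKM. The gaps between these 3 genes were larger than their SDs. The lowest large subunit genes were MRPL42 at 2.05 ± 0.266 FPKM, MRPL19 at 3.41 ± 0.778 FPKM and MRPL22 at 4.93 ± 0.373 FPKM. The value for MRPL42 rests on an exonic length of 17157 bases implied by its counts and FPKM. By counts alone, MRPL42 was not among rare transcripts, at 34.3 CPM in siControl. Among small subunit genes, MRPS21 was highest at 130 ± 6.05 FPKM. MRPS24 at 86.3 ± 6.05 FPKM and MRPS16 at 84.1 ± 0.891 FPKM came next and differed by less than the SD of MRPS24. The lowest were MRPS30 at 8.92 ± 0.724 FPKM, MRPS11 at 10.0 ± 0.264 FPKM and MRPS28 at 10.1 ± 0.525 FPKM, and the last pair differed by less than their spread. The median over genes was 40.5 FPKM for the large and 23.2 FPKM for the small subunit.

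After PSF knockdown the members as a group moved little and mostly in one direction. The median log2 fold change, siPSF against siControl, was 0.10 over the 78 members and 0.01 over the 19694 genes tested. Above 0 lay 59 of 78 members (75.6%), where 51.6% of all genes did. The middle of the distribution was narrow, with quartiles at 0.01 and 0.20. The log2 fold changes had an SD of 0.15 over the members, against 0.27 over the 10159 protein-coding genes within the same range of FPKM. No member moved by more than 1.37-fold.

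Few members passed the test one by one. Called higher were 7 of the 78 members (8.97%) by the quasi-likelihood test of edgeR (adjusted p under 0.05, Benjamini-Hochberg, with all genes tested in the adjustment), where 6.65% of all genes were called higher. Called lower was 1 member (1.28%), where 8.27% of all genes were called lower. At an unadjusted p under 0.05 the counts were 19 higher and 1 lower, where 2835 and 3026 of the 19694 genes tested were. All 3 siPSF libraries lay above all 3 siControl libraries in 29 members, a pattern that 16.7% of all genes showed, and below them in 1 member, where 17.8% of all genes did. The share of members called higher was thus near the background, while the share called lower was below it. The plot of all members ranked by fold change shows this one-sided spread.

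**Figure D1:**
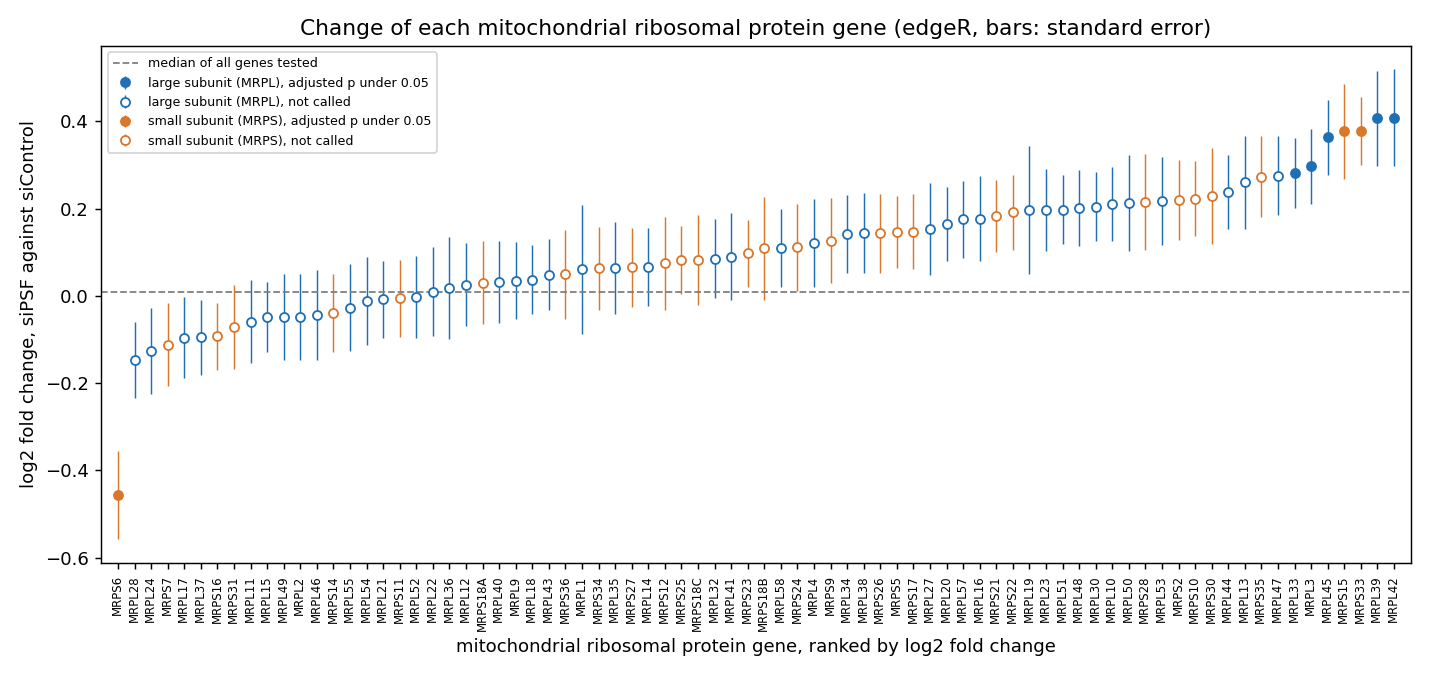
Log2 fold change of each of the 78 genes, siPSF against siControl, from the lowest on the left to the highest on the right, with bars for the standard error. Blue points are large subunit and orange points small subunit genes, filled where the adjusted p was under 0.05, and the dashed line is the median of all genes tested (0.01). The 7 filled points on the right range from 0.28 to 0.41 and the only filled point on the left, MRPS6, lies at -0.46.

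How far the group stood from 0 depended on how the libraries were scaled. Without TMM factors, on library totals alone, the median of all genes was -0.07 and that of the members 0.03, with 2 members called higher (MRPS33 and MRPL45) and 1 lower (MRPS6), where 4.22% of all genes were called higher and 11.5% lower. On the deposited FPKM with limma, the medians were -0.06 and 0.02, with 3 members called higher and 1 lower, against 4.96% and 12% of all genes. When the FPKM of each library were rescaled to the same sum, the median of all genes shifted to -0.16 and that of the members to -0.09, so the direction against 0 flipped. In that fit 0 members were called higher and 9 lower (MRPL28, MRPL15, MRPS16, MRPS7, MRPL37, MRPL17, MRPS6, MRPL11 and MRPL24), where 3.12% of all genes were called higher and 23% lower. Measured from the all-gene median, the members' median lay above it under these 4 scalings, by 0.09 with TMM factors, 0.09 on library totals, 0.08 on FPKM and 0.07 on rescaled FPKM. Between 57 and 59 of the 78 members exceeded that median in these 4 fits. Among all genes, the share of calls that were higher also moved, from 44.6% with TMM factors to 26.8% on totals, 29.2% on FPKM and 12% on rescaled FPKM.

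**Figure D2:**
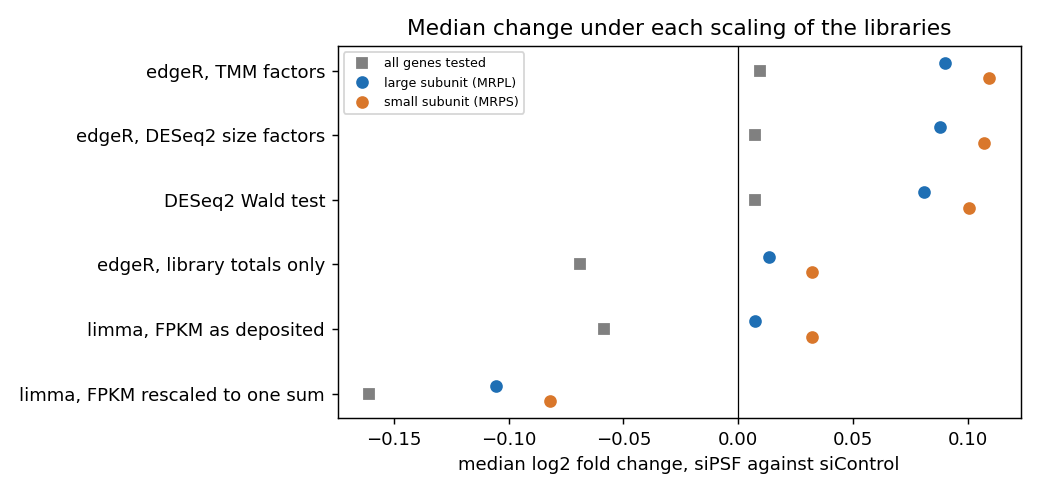
Median log2 fold change, siPSF against siControl, under 6 ways of scaling and testing the libraries, for all genes tested (grey squares), large subunit genes (blue circles) and small subunit genes (orange circles). In each row both circles lie to the right of the square, while the last row, rescaled FPKM, puts every median below 0.

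Large and small subunit genes were then compared. Of all genes, 51.6% lay above 0, and edgeR called 6.65% higher and 8.27% lower. At an unadjusted p under 0.05, 2835 of the 19694 genes tested were higher and 3026 lower. The median log2 fold change was 0.09 over the 49 large subunit genes and 0.11 over the 29 small subunit genes. Of the large subunit genes 36 lay above 0, 5 were called higher and 0 lower, with 12 higher and 0 lower at an unadjusted p under 0.05. DESeq2's Wald test called 6 large subunit genes higher and 0 lower, where it called 8.02% of all genes higher and 10.4% lower. Of the small subunit genes 23 lay above 0, 2 were called higher and 1 lower, with 7 higher and 1 lower at an unadjusted p under 0.05. The large-minus-small difference of the medians was -0.02. It ranged from -0.03 to 0.03 when single libraries were left out, and was above 0 only without siControl replicate 1, at 0.03.

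The same comparison was made library by library. The geometric mean over large subunit genes was 49.2, 47.3 and 45.0 CPM in siControl and 51.2, 50.5 and 50.6 CPM in siPSF. Over small subunit genes it was 46.5, 45.9 and 43.3 CPM in siControl and 48.8, 48.0 and 48.4 CPM in siPSF. In both subunits the siPSF libraries lay above the siControl libraries, and siControl replicate 3 was the lowest, as it was within its group in 51 of the 78 genes taken singly. The large-minus-small difference of mean log2 CPM was 0.08, 0.04 and 0.05 in siControl and 0.07, 0.07 and 0.06 in siPSF. The siPSF values fell inside the siControl range, so the balance between the subunits was not separated between the groups. Without TMM factors the geometric mean over all members was 49.2, 47.1 and 46.7 CPM in siControl and 49.5, 47.8 and 48.3 CPM in siPSF, and the groups overlapped. Without siControl replicate 3 the median log2 fold change of the members was 0.06, which was 0.06 above the median of all genes.

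**Figure D3:**
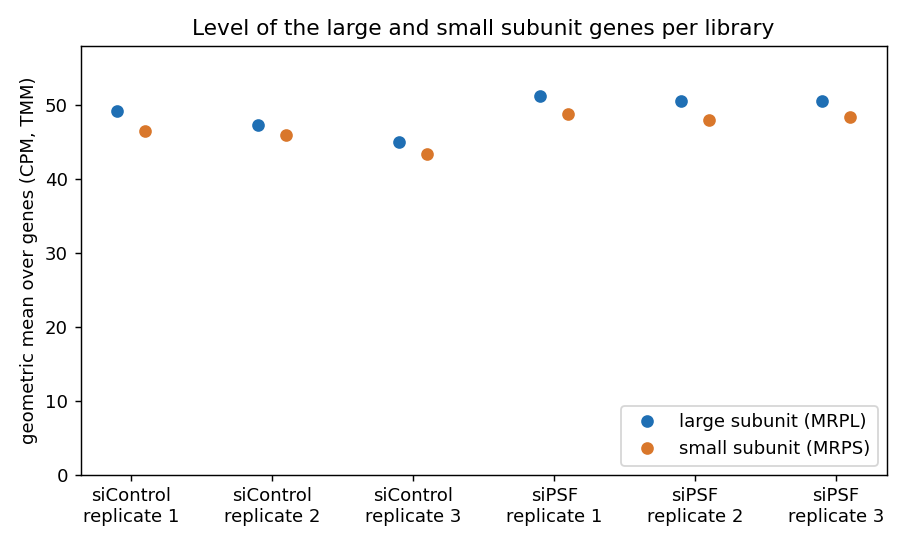
Geometric mean level, in CPM with TMM factors, over the 49 large subunit genes (blue) and the 29 small subunit genes (orange) in each of the 6 libraries. The 3 siPSF libraries lie between 50.5 and 51.2 CPM for the large subunit and between 48.0 and 48.8 CPM for the small subunit, above every siControl library, and the distance between blue and orange is alike in both groups.

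Symbols do not always match the assembled ribosome. MRPS30 and MRPS18A sit in the large subunit, and MRPS36 is now known as a component of the oxoglutarate dehydrogenase complex. With these moved or left out, the medians were 0.09 over 51 large and 0.11 over 26 small subunit genes. MRPS30 had a log2 fold change of 0.23 (adjusted p = 0.19), MRPS18A of 0.03 (adjusted p = 0.87) and MRPS36 of 0.05 (adjusted p = 0.79). The other paralogues of bacterial S18, MRPS18B and MRPS18C, had log2 fold changes of 0.11 and 0.08, and neither passed the test. MRPS24 and MRPS28, whose bacterial homologues carry other numbers, had log2 fold changes of 0.11 (adjusted p = 0.49) and 0.21 (adjusted p = 0.21). Members were also grouped by origin, read from the number in the symbol except for members noted singly. Single genes may therefore be misplaced. The 46 members classed as having a bacterial homologue had a median of 0.08. Of these, 3 (6.52%) were called higher and 1 (2.17%) lower, where 6.65% and 8.27% of all genes were. The 32 members classed as specific to mitochondria had a median of 0.13, with 4 (12.5%) called higher and 0 lower. DESeq2 called 5 higher and 0 lower, where it called 8.02% and 10.4% of all genes. At an unadjusted p under 0.05 in edgeR, 10 were higher and 0 lower, where 2835 and 3026 of the 19694 genes tested were.

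The called members are described next, beginning with the large subunit. MRPL45 (gene ID 84311, chr17:38297168-38323211) encodes a protein at the exit of the peptide tunnel that ties the ribosome to the inner membrane. It measured 47.2, 44.7 and 41.9 CPM in siControl and 59.1, 57.2 and 55.8 CPM in siPSF. Every siPSF library lay above every siControl library, and MRPL45 rose by 0.36 on the log2 scale (SE 0.09, adjusted p = 0.014). The call was lost without siControl replicate 2 (adjusted p = 0.064) and without siPSF replicate 1 (adjusted p = 0.067).

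MRPL3 (gene ID 11222, chr3:131462212-131502971) encodes a core protein near the catalytic centre of the large subunit. It measured 79.7, 68.6 and 74.5 CPM in siControl and 92.6, 86.2 and 95.1 CPM in siPSF. The groups did not overlap, and the log2 fold change was 0.30 (SE 0.09, adjusted p = 0.037). MRPL33 (gene ID 9553, chr2:27771719-27779733), a small protein with a bacterial counterpart, measured 68.2, 69.6 and 70.3 CPM in siControl and 84.8, 78.8 and 89.2 CPM in siPSF. Its siControl values lay close together and below every siPSF value, with a log2 fold change of 0.28 (SE 0.08, adjusted p = 0.036). In the GENCODE annotation, exons of MRPL33 overlap those of BABAM2 on the same strand. In the RefSeq positions they do not overlap, since BABAM2 starts at 27888709, beyond the end of MRPL33 at 27779733. BABAM2 was itself called lower, from 58.9, 67.6 and 57.9 CPM to 47.0, 51.0 and 40.8 CPM (log2 fold change -0.41, adjusted p = 0.020, lost without siControl replicate 2 and without siPSF replicate 1, with adjusted p up to 0.098), and how reads in the shared stretch were assigned was not tested.

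MRPL39 (gene ID 54148, chr21:25585656-25607859) and MRPL42 (gene ID 28977, chr12:93467514-93516214) encode proteins without a bacterial counterpart in the ribosome, and MRPL39 resembles a threonyl-tRNA synthetase. MRPL39 measured 14.6, 11.9 and 13.7 CPM in siControl and 18.7, 17.7 and 16.9 CPM in siPSF, the lowest CPM among the called members. MRPL42 measured 33.9, 30.8 and 38.1 CPM in siControl and 46.1, 40.2 and 50.3 CPM in siPSF. Neither gene overlapped between groups. They had the largest rises of the members, with log2 fold changes of 0.41 each (SE 0.11 for both, adjusted p = 0.027 for both). MRPL42 has 5 annotated pseudogenes by name. Of these, MRPL42P5 was tested and reached at most 0.255 CPM in any library.

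In the small subunit, MRPS33 (gene ID 51650, chr7:141002610-141014952) encodes a mitochondria-specific protein. It measured 58.6, 61.9 and 59.1 CPM in siControl and 78.2, 76.3 and 78.9 CPM in siPSF. The replicates lay close together and the groups far apart, with a log2 fold change of 0.38 (SE 0.08, adjusted p = 0.0071). MRPS33 was the only member called in all 6 fits that left out 1 library, with adjusted p up to 0.035. MRPS15 (gene ID 64960, chr1:36455718-36464384), a homologue of a bacterial protein that binds the small rRNA, measured 23.1, 19.4 and 18.1 CPM in siControl and 27.0, 26.6 and 25 CPM in siPSF. Every siPSF value lay above every siControl value, and the log2 fold change was 0.38 (SE 0.11, adjusted p = 0.036).

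MRPS6 (gene ID 64968, chr21:34073578-34143030), a homologue of a bacterial protein on the platform of the small subunit, was the only member called lower. It measured 36.6, 39.1 and 32.6 CPM in siControl and 27.6, 27.1 and 24.3 CPM in siPSF. All siPSF values lay below all siControl values, and MRPS6 fell by 0.46 on the log2 scale (SE 0.10, adjusted p = 0.010), or by 27.1%. It was called lower under every other scaling and test that kept all 6 libraries, and the call was lost only without siControl replicate 2 (adjusted p = 0.057). Exons of MRPS6 overlap on the same strand with SLC5A3, which encodes an inositol transporter. SLC5A3 measured 15.0, 17.1 and 21.8 CPM in siControl and 17.7, 16.0 and 23.7 CPM in siPSF, with overlapping groups (log2 fold change 0.09, adjusted p = 0.76). The plot of the called members by library shows all 8 together.

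**Figure D4:**
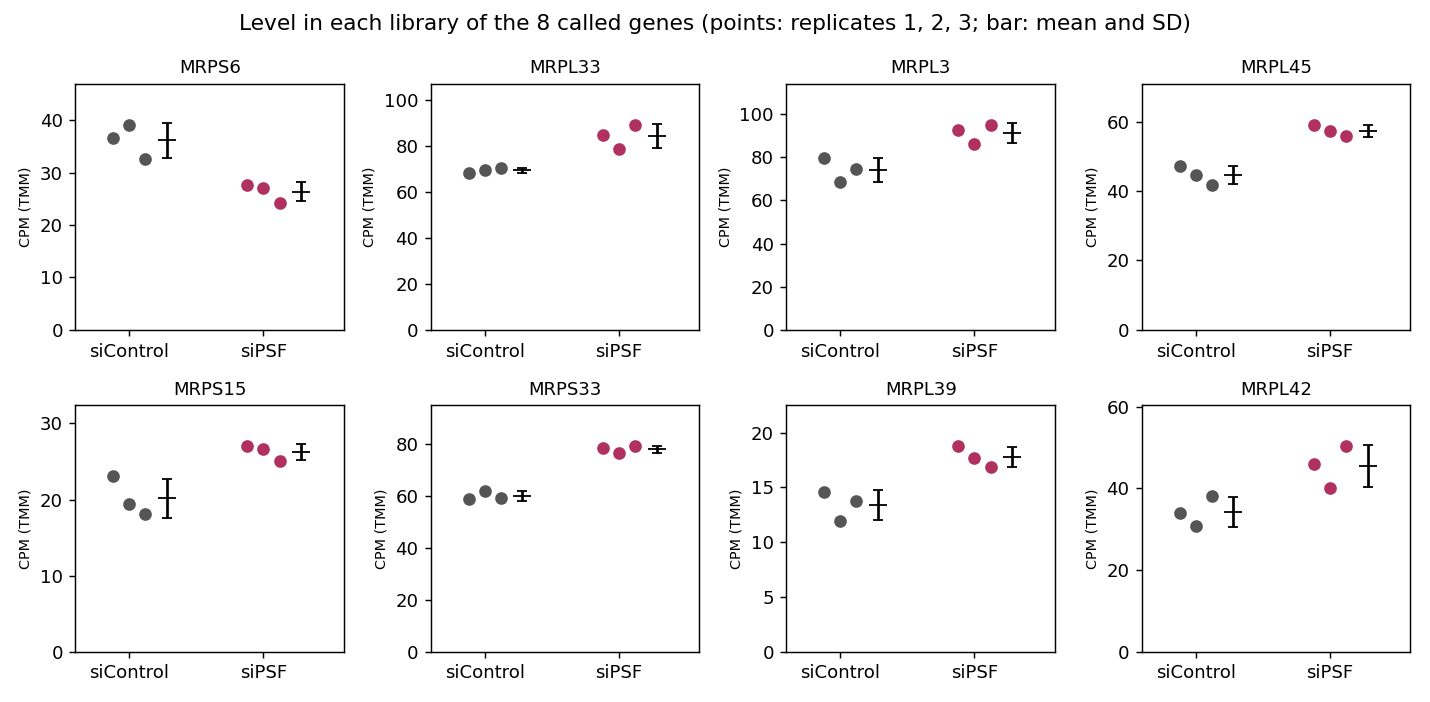
Level of the 8 called genes in each library, in CPM with TMM factors on axes that start at 0, with siControl in grey and siPSF in red, points for replicates 1, 2 and 3, and a bar for the mean and SD. In each panel the groups do not overlap, with siPSF lower for MRPS6 and higher for the other 7 genes.

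Several calls were lost in the 6 fits that left out 1 library. These fits also had fewer libraries, so a lost call does not show that it rested on the library left out. MRPL33 was called in 1 of the 6 such fits, without siPSF replicate 2, with adjusted p of up to 0.12 in the others. MRPL3 was lost without siControl replicate 2 (adjusted p = 0.18), siControl replicate 3 (0.080), siPSF replicate 1 (0.12) and siPSF replicate 3 (0.063). MRPL42 was lost without siControl replicate 1 (0.063), siControl replicate 2 (0.14), siPSF replicate 1 (0.076) and siPSF replicate 3 (0.055). MRPL39 was lost without siControl replicate 2 (0.14), siControl replicate 3 (0.064), siPSF replicate 1 (0.11) and siPSF replicate 2 (0.060). MRPS15 was lost without siControl replicate 2 (0.15), siControl replicate 3 (0.11), siPSF replicate 1 (0.11) and siPSF replicate 2 (0.083). All 8 genes had the same direction in each of these fits, with log2 fold changes from 0.23 to 0.49 for the 7 that rose and from -0.53 to -0.40 for MRPS6.

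Other members had values of similar size without passing the test. MRPL47 had a log2 fold change of 0.28 (adjusted p = 0.061) and MRPS35 of 0.27 (adjusted p = 0.069), and in both every siPSF library lay above every siControl library. MRPL47 was called higher by DESeq2, the only member that DESeq2 added, and is named here because of its value. At the other end, MRPL28 measured 161, 173 and 145 CPM in siControl and 142, 151 and 140 CPM in siPSF, with overlapping groups and a log2 fold change of -0.15 (adjusted p = 0.29). MRPL24, MRPS7, MRPL17, MRPL37 and MRPS16 had log2 fold changes of -0.13, -0.11, -0.10, -0.10 and -0.09, all with overlapping groups. Among these 6 genes, MRPL37, named for its value, encodes a protein specific to mitochondria, and the others have bacterial homologues. The most abundant member, MRPL12, had a log2 fold change of 0.03 (adjusted p = 0.89). MRPS21 had 0.18 (adjusted p = 0.16), MRPL19 0.20 (adjusted p = 0.41) and MRPL22 0.01 (adjusted p = 0.96).

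Members are short genes, and fold change in these libraries moved with gene length. The median length was 8.64 kb for the members and 30.3 kb for the protein-coding genes tested, and 2 members reached 100 kb. Over 14416 protein-coding genes, Spearman's rho between length and log2 fold change was -0.30, and over the 78 members it was 0.27. These are correlations across genes of the same 6 libraries and are given as a description. Among the 22 members under 5 kb the median log2 fold change was 0.05, against 0.10 for protein-coding genes of that length. Among the 19 members of 5 to 10 kb it was 0.11 against 0.07, and among the 19 of 10 to 20 kb it was 0.14 against 0.07. Among the 18 members of 20 kb or more it was 0.17 against -0.03, and 4 of the 7 genes called higher, as well as MRPS6, were in this last group. Of all genes, 6.65% were called higher and 8.27% lower, and the share among protein-coding genes of this length was not counted. When each member was compared with protein-coding genes of like length, in 20 bins, the median was 0.03 in place of 0.10. The members under 5 kb thus lay below their length class, and those of 20 kb or more above theirs. That last class has no upper limit, while the longest member was 111.5 kb. Its protein-coding genes are therefore not matched in length to its members.

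**Figure D5:**
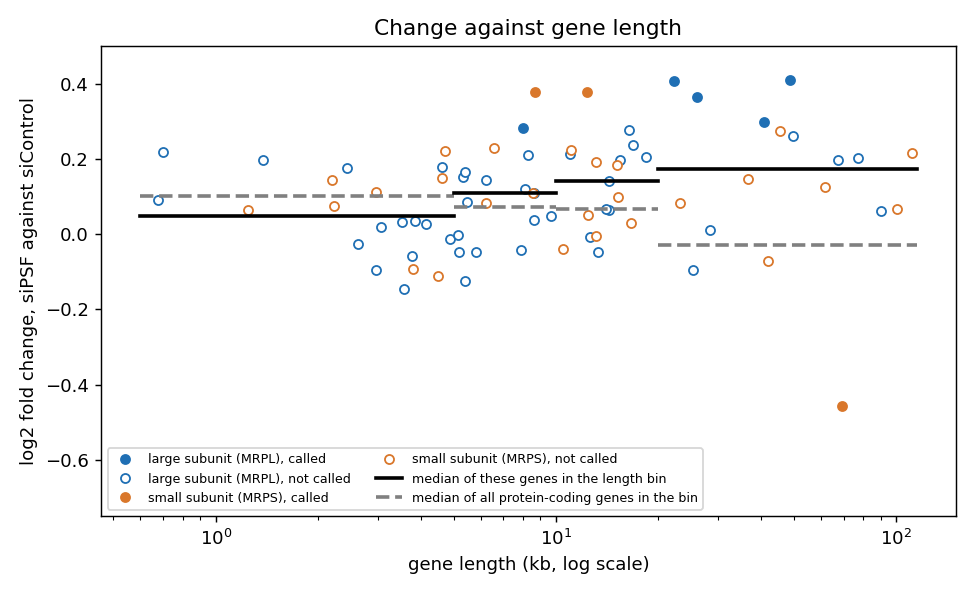
Log2 fold change, siPSF against siControl, of the 78 genes against gene length in kb on a log axis, filled where called, with blue for the large and orange for the small subunit. Solid lines are the members' medians in 4 length classes, rising from 0.05 to 0.17, and dashed lines are the medians of all protein-coding genes in the same classes, falling from 0.10 to -0.03.

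Members lie on 21 chromosomes, often beside another gene. In 27 of the 78 members (34.6%) a protein-coding gene on the other strand starts within 1000 bases of the member's start, compared with 16.9% of 14154 tested protein-coding genes. Among these pairs, MRPL46 and MRPS11 are both members, with starts 63 bases apart, and their log2 fold changes were -0.04 and -0.01. Of the 24 tested partners outside the group the median was 0.06. EdgeR called 3 higher and 0 lower, where it called 6.65% and 8.27% of all genes. DESeq2 called 3 and 1, where it called 8.02% and 10.4% of all genes. At an unadjusted p under 0.05 in edgeR, 5 were higher and 3 lower, where 2835 and 3026 of the 19694 genes tested were. The 3 called higher by edgeR were TMEM63B beside MRPL14, TWNK, the mitochondrial DNA helicase, beside MRPL43, and FAU, which encodes a cytosolic ribosomal protein, beside MRPL49. With 1 library left out, TMEM63B was called in all 6 fits, TWNK in 5 (lost without siControl replicate 2, adjusted p = 0.055) and FAU in 4 (lost without siControl replicate 3 and without siPSF replicate 2, adjusted p up to 0.067). The members of these pairs, MRPL14, MRPL43 and MRPL49, had log2 fold changes of 0.07, 0.05 and -0.05, and none passed the test. None of the 8 called members has such a partner. Exons of 41 members overlap those of another annotated gene, 30 on the other strand and 18 on the same strand, and whether counting used the strand is not given in the sources used here.

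Promoters are shown for all 8 called members, so that the sequence around the starts of genes from many chromosomes can be set side by side. RefSeq promoters (GRCh38.p14, 250 bases before to 50 after each start) were matched for 70 members and for 11732 tested protein-coding genes. Both strands were searched for 5 fixed words. The YY1 word AAGATGGC was found in 21 members (30%) and in 5.9% of the protein-coding genes. The ETS word CCGGAAGT was found in 12 members (17.1%) against 9.2%, the NRF1 word GCATGCGC in 6 (8.6%) against 6.1%, the E-box CACGTG in 10 (14.3%) against 12.5%, and the CRE word TGACGTCA in 1 (1.4%) against 3.7%. Windows from 120 bases before to 30 after a start are printed 5′ to 3′ on the strand of the gene, with any of these words in capitals. MRPL42 and MRPL45 carry the YY1 word after the start, MRPL3 the ETS word and MRPS33, at one of its annotated starts, the E-box. MRPL45 also holds an E-box farther from its start, outside the printed window. None of the 5 words was found in MRPL33, MRPL39 and MRPS15, which were called higher, or in MRPS6, which was called lower.
MRPL42, chr12:93467394-93467543, plus strand: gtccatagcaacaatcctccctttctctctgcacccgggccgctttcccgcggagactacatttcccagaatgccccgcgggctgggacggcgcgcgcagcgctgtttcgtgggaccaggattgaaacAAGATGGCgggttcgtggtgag
MRPL45, chr17:38297048-38297197, plus strand: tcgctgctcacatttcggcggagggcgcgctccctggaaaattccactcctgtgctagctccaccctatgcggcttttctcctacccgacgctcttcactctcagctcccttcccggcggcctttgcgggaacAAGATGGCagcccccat
MRPL3, chr3:131502942-131503091, minus strand: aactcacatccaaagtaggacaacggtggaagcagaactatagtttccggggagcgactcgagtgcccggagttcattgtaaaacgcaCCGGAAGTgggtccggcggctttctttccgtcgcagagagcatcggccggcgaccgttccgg
MRPL33, chr2:27771599-27771748, plus strand: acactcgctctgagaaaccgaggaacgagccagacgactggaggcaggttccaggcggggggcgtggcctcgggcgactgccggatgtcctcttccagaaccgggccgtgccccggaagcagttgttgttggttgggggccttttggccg
MRPL39, chr21:25607452-25607601, minus strand: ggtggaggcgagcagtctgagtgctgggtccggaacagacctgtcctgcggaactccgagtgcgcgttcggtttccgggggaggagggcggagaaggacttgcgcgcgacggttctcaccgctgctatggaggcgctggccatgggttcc
MRPS33, chr7:141014650-141014799, minus strand: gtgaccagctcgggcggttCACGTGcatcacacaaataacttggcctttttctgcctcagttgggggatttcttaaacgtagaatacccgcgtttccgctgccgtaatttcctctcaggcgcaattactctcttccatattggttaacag
MRPS33, chr7:141014923-141015072, minus strand: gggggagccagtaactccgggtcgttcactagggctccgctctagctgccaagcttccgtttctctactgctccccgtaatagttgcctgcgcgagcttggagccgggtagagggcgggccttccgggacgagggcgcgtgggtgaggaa
MRPS15, chr1:36464355-36464504, minus strand: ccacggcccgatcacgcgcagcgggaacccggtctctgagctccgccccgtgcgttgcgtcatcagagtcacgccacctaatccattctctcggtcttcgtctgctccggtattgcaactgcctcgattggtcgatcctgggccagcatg
MRPS6, chr21:34073458-34073607, plus strand: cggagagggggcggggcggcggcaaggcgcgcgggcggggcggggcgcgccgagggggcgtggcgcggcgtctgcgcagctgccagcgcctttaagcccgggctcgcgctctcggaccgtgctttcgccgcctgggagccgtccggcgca

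The YY1 word was found in 13 of 42 large and 8 of 28 small subunit genes, and the ETS word in 10 of 42 and 2 of 28. The NRF1 word was found in 4 large and 2 small subunit genes, the E-box in 6 and 4, and the CRE word in 1 and 0. Of the 70 members searched, the 21 with the YY1 word had a median log2 fold change of 0.11, with 2 called in either direction. The members without the YY1 word had a median of 0.10, with 6 called. The 12 members with the ETS word had a median of 0.17 with 1 called gene, and those without it 0.08 with 7. Most members lacked each word, so these counts come from sets of unequal size. Of all genes, 6.65% were called higher and 8.27% lower. With the NRF1 word the median was 0.05, and without it 0.12. A match describes the letters in a window and does not show that a factor binds there.

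Genes that work with the mitochondrial ribosome were read from the same fit. Across all genes, edgeR called 6.65% higher and 8.27% lower, and DESeq2 8.02% and 10.4%. At an unadjusted p under 0.05 in edgeR, 2835 of the 19694 genes tested were higher and 3026 lower. The 5 ribosomal proteins without an MRP symbol are DAP3, CHCHD1, AURKAIP1 and PTCD3 of the small subunit and GADD45GIP1 of the large subunit. Their log2 fold changes ran from 0.05 for DAP3 to 0.15 for PTCD3 (adjusted p = 0.21), and 0 were called by edgeR or by DESeq2's Wald test, as were 0 at an unadjusted p under 0.05 in either.

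Of 26 genes for ribosome assembly and rRNA modification, 4 (15.4%) were called higher and 0 lower, where 6.65% and 8.27% of all genes were. Their median log2 fold change was 0.09. At an unadjusted p under 0.05, 6 were higher and 1 lower, and DESeq2 called 4 higher and 1 lower. NOA1, a GTPase for assembly of the small subunit, measured 25.6, 23.6 and 22.7 CPM in siControl and 34.2, 37.2 and 40.1 CPM in siPSF. It rose by 0.63 on the log2 scale (SE 0.10, adjusted p = 0.0013), more than any member. RPUSD4, a pseudouridine synthase, had a log2 fold change of 0.45 (adjusted p = 0.0065), MALSU1, a large subunit assembly factor, of 0.33 (adjusted p = 0.030), and MTERF4, which recruits an rRNA methyltransferase, of 0.27 (adjusted p = 0.035). NOA1 and RPUSD4 were called in all 6 fits that left out 1 library and on library totals. MALSU1 was called in 1 of these 6, without siPSF replicate 2 (adjusted p up to 0.11 in the others), and MTERF4 in 0 of 6 (adjusted p from 0.062 to 0.14). On library totals neither passed (adjusted p = 0.086 and 0.11). In 10 of the 26 genes every siPSF library lay above every siControl library, a pattern that 16.7% of all genes showed. In 1, RBFA, every siPSF library lay below, as in 17.8% of all genes. RBFA, named for its value, had a log2 fold change of -0.31 (adjusted p = 0.076 by edgeR). It passed as lower on library totals (adjusted p = 0.034) and, with limma, on FPKM (0.049) and rescaled FPKM (0.02).

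Of 14 tested translation factors and partners, 3 (21.4%) were called higher and 0 lower, where 6.65% and 8.27% of all genes were. Their median was 0.17. At an unadjusted p under 0.05, 5 were higher and 0 lower, and DESeq2 called 4 higher and 0 lower. OXA1L, the inner membrane insertase for newly made chains, measured 86.6, 92.7 and 79.1 CPM in siControl and 111, 115 and 114 CPM in siPSF (log2 fold change 0.39, adjusted p = 0.0086). LRPPRC, which stabilises mitochondrial mRNAs, had a log2 fold change of 0.41 (adjusted p = 0.020) and GFM2, a ribosome recycling factor, of 0.31 (adjusted p = 0.027). OXA1L was called in all 6 fits that left out 1 library. LRPPRC was lost without siControl replicate 2 (adjusted p = 0.11), and GFM2 without siControl replicate 1 (0.073), siControl replicate 2 (0.14), siPSF replicate 1 (0.12) and siPSF replicate 2 (0.060). On library totals OXA1L passed, and LRPPRC (adjusted p = 0.058) and GFM2 (0.096) did not. Of 15 mitochondrial transcription genes and nuclear regulators, 1 (6.67%) was called higher and 0 lower, a share called higher near the 6.65% of all genes. Their median was 0.19. At an unadjusted p under 0.05, 4 were higher and 1 lower, and DESeq2 called 1 in each direction. The gene called by edgeR was ESRRA, a nuclear receptor that acts on mitochondrial genes, with a log2 fold change of 0.44 (adjusted p = 0.015). Its call was lost without siControl replicate 2 (adjusted p = 0.058) and siControl replicate 3 (0.062).

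The mRNAs that these ribosomes translate are the 13 encoded by mitochondrial DNA. Their median log2 fold change was 0.22, with 12 above 0, where 51.6% of all genes were. EdgeR called 1 (7.69%) higher and 0 lower, where it called 6.65% and 8.27% of all genes. At an unadjusted p under 0.05, 6 were higher and 0 lower, where 2835 and 3026 of the 19694 genes tested were. DESeq2 called 2 higher and 0 lower, where it called 8.02% and 10.4% of all genes. ND1, a complex I subunit, measured 2340, 2667 and 2060 CPM in siControl and 2889, 3330 and 3317 CPM in siPSF, and rose by 0.43 on the log2 scale (SE 0.11, adjusted p = 0.019). The call was lost without siControl replicate 3 (adjusted p = 0.054) and siPSF replicate 2 (0.057). COX1, a complex IV subunit, had a log2 fold change of 0.22 (adjusted p = 0.20), and its groups overlapped. The values of these mRNAs also depended on scaling. On rescaled FPKM their log2 fold changes ran from -0.21 for ND4L to 0.24 for ND1, with COX1 at 0.03.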

How the data were processed

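Poly(A) RNA of 3 siControl and 3 siPSF cultures of SH-SY5Y cells was sequenced as paired reads of 50 bases. The authors deposited 1 table with counts per gene and FPKM values, which the authors divided by exon length and mapped reads. Their methods describe rRNA removal with Bowtie, mapping with TopHat to hg38 and counting on RefSeq, while the submitters' processing notes name Trimmomatic, HISAT2 2.1.0 and StringTie 2.1.3b. Which made the table was not settled. Columns were assigned by title, and no per-sample column was left unused.

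Counts were fitted with edgeR 4.0.16 (quasi-likelihood test, TMM, filterByExpr) over all 6 libraries with Benjamini-Hochberg adjustment, called at adjusted p under 0.05. Alternatives used DESeq2 1.42.0, limma 3.58.1 on log2(FPKM + 0.5) for genes of mean FPKM of at least 0.5, no filter, a replicate block, length bins and single libraries left out. Library totals without TMM factors were added after the data were seen. Gene positions came from RefSeq for 97.8% of rows, neighbours and exons from GENCODE. Named were called members, the 3 largest rises and falls and the 3 highest and lowest FPKM per subunit, members whose symbol and subunit differ, and called genes of the other lists. Members and lists were chosen with earlier results of these data known.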

Additional observations from a re-analysis of the deposited data

How the results depend on the processing

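SFPQ and all 8 called members kept their direction under every alternative run. With 3 libraries a group, changes of the size seen here lay close to the threshold, and several calls were lost when 1 library was left out. Leaving out 1 library gave 1500 to 3140 changed genes (2938 with all libraries, lowest without siControl replicate 2, 1754 without siControl replicate 3), 1 to 6 members called higher (1 without siControl replicate 2 or siPSF replicate 1), 0 to 1 called lower (0 without siControl replicate 2), 5 to 11 called genes in the other lists in place of 9, and a large-minus-small difference from -0.0348 to 0.0272. Members called higher numbered 2 on library totals, 3 on FPKM and 0 on rescaled FPKM, where 9 were called lower. The members' median was 0.0257 on library totals, 0.0185 on FPKM, -0.0941 on rescaled FPKM and 0.0284 after centring on length bins, and the large-minus-small difference was 0.0097 after that centring. The cause of these shifts was not tested. Of 46 named genes, those that kept their side of the threshold ranged over the alternatives from 26 on rescaled FPKM (13 lost, 5 gained, 2 not fitted) to 46 with DESeq2, with 36 on library totals (10 lost) and 30 without siControl replicate 2 (16 lost).

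With the replicate number as a block, 9 members were called higher, adding MRPL47 and MRPS35, and 1, MRPS6, was called lower. Of the 19694 genes tested, this fit called 1389 higher and 1640 lower. It called 14 genes of the other lists, and the large-minus-small difference was 0.0004. Deviations of libraries with the same number correlated at -0.0222, 0.0561 and 0.0559. Those of libraries with different numbers ran from -0.1208 to 0.0712, so the same-number values lay inside that range. The labels give a shared number and do not say whether the cultures were paired.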

Other observations

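Transcripts with related names that are not protein-coding were read from the same fit, chosen after their values were seen. MRPS30-DT, a divergent transcript beside MRPS30, measured 0.214, 0.322 and 0.262 CPM in siControl and 0.101, 0.142 and 0.112 CPM in siPSF and was called lower by edgeR (log2 fold change -1.17, adjusted p = 0.044). The call was lost in each of the 6 fits that left out 1 library (adjusted p up to 0.16) and with the replicate block (adjusted p = 0.057). MRPS30 itself had a log2 fold change of 0.23 (adjusted p = 0.19). MRPL20-AS1 measured 30.4, 31.3 and 30.1 CPM in siControl and 34.1, 35.0 and 39.1 CPM in siPSF, above in every library without passing the test (adjusted p = 0.11). The pseudogene MRPS31P5 measured 10.1 to 11.7 CPM over all libraries, with a log2 fold change of -0.10 (adjusted p = 0.58).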
